A study of Homo sapiens with 18 samples.

Results

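This account concerns the MCF10CA1h cell line, in which a METTL3 CRISPR line was compared with a control CRISPR line by RNA sequencing. The members were 6 of the 18 libraries of the series, 3 labelled as control negative CRISPR (replicates a, b and c) and 3 labelled as METTL3 CRISPR knockdown (replicates a, b and c), chosen by cell line and genotype and not by any measured value. MCF10CA1h cells are human breast epithelial cells that descend from MCF10A through MCF10AT1, which carries an introduced activated HRas, and were then passed serially through mouse xenografts, so all 6 libraries share that history. Both groups had been transfected with a construct that carries Cas9, a guide RNA and mCherry, sorted by fluorescence and grown from single cells; the control construct was a negative one and the other was directed at exon 1 of METTL3. Each group was thus 1 clone, grown in culture without a further treatment that the labels name, and the p-values below measure the spread between 3 samples of a clone, which holds no difference between clones. The libraries were of total RNA depleted of ribosomal RNA by the methods text and of polyA RNA by the labels, a conflict that was not settled here. Values were given for 35933 genes, and the 15127 whose normalized counts averaged 10 or more in these 6 libraries were tested. A normalized count here is an estimated count per gene that the authors divided by a factor for each library, with no division by gene length, so that levels are compared between libraries and not between genes.

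METTL3 is the catalytic subunit of the complex that places N6-methyladenosine (m6A) on messenger RNA, a mark that bears on splicing, export, translation and decay of the transcripts that carry it. Breast epithelial cells of the MCF10 family are basal-like: they make basal keratins, laminins and integrins that anchor a cell sheet to its basement membrane, and they retain part of the squamous differentiation programme. Interferon-stimulated genes are driven by transcription factors, IRF9 among them, that bind a short promoter sequence named the interferon-stimulated response element, while genes of wounding, matrix and inflammation are commonly driven by AP-1 and NF-kB.

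The sums of the normalized counts were between 23678374 and 26054148 per library, and what a single read is worth could not be recovered, so the depth behind a value is unknown. The epithelial label was checked against marker genes. The summed level of 14 breast epithelial markers was between 503422 and 556381 in the control libraries and between 732578 and 809156 in the METTL3 CRISPR libraries. Of markers of other cell types, the summed level was 1662 to 2036 in the control against 2949 to 3086 for 13 fibroblast markers, 1966 to 2162 against 1729 to 2444 for 12 endothelial markers, 947 to 1051 against 989 to 1208 for 13 immune markers, and 1417 to 1595 against 860 to 876 for 8 adipocyte markers. Under 10 in every library were 2 of the fibroblast, 8 of the endothelial, 7 of the immune and 5 of the adipocyte markers, among them PTPRC, CDH5 and VWF, while CD3E and NKG7 were listed at 0 in all 6. The markers called higher were FAP, DCN, CSF1R and CD68, and those called lower were COL3A1, PECAM1, CD14 and FABP4. With 1 library left out, the calls of PECAM1 and COL3A1 were each lost in 4 of the 6 fits. That of CD68 was lost in 2 and that of CD14 in 1. The part of other cell types in the results was not tested.

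METTL3 itself was lower in the METTL3 CRISPR line. The gene lies at chr14:21498133-21511342 on the minus strand (hg38). Its normalized counts were 1022, 1102 and 1280 in the control and 825, 745 and 843 in the METTL3 CRISPR line, or 70.8% of the control mean, and the groups did not overlap. The log2 fold change was -0.49 (SE 0.12, adjusted p = 0.0234), and the exact permutation test gave a two-sided p of 0.1, the smallest that 3 libraries against 3 allow. Without METTL3 replicate b the adjusted p was 0.0854, and without control replicate c it was 0.0906. Of the 25 tested genes of the m6A machinery, METTL3 was the only member called lower and ALKBH5, an m6A demethylase, the only member called higher. Among all tested genes 4.85% were called lower and 7.91% higher. ALKBH5 was at 3252, 3248 and 3441 in the control and at 4585, 5737 and 3983 in the METTL3 CRISPR line (log2 fold change 0.51, SE 0.13, adjusted p = 0.0261). Its call was lost without METTL3 replicate b (adjusted p = 0.0699), control replicate a (0.0903), control replicate b (0.0617) or control replicate c (0.0543). METTL14, the partner of METTL3, stood at 321 ± 38.2 (SD, n = 3) against 249 ± 54.7 (SD, n = 3), and WTAP at 1521 ± 122 (SD, n = 3) against 1525 ± 162 (SD, n = 3), and neither passed the test.

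Across the 15127 genes, 1929 (12.8%) were called at an adjusted p under 0.05. Of these, 1196 (7.91% of the tested genes) were higher and 733 (4.85%) were lower in the METTL3 CRISPR line. Log2 fold changes had a median of -0.02 over everything tested, of 0.84 among the higher genes and of -0.66 among the lower genes. A change of at least 1 on the log2 scale was reached by 495 of the higher and 174 of the lower genes, and unless stated otherwise the calls of genes given below with their values held with any 1 of the 6 libraries left out. With the libraries brought to equal sums, 50.2% of the called genes were higher in place of 62.0%, while the median of all genes moved to -0.08. Fitting all 18 libraries together, which lets the spread in MCF10A and MCF10AT1 count, raised the median standard error from 0.17 to 0.33 and left 180 genes higher and 68 lower.

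**Figure D1:**
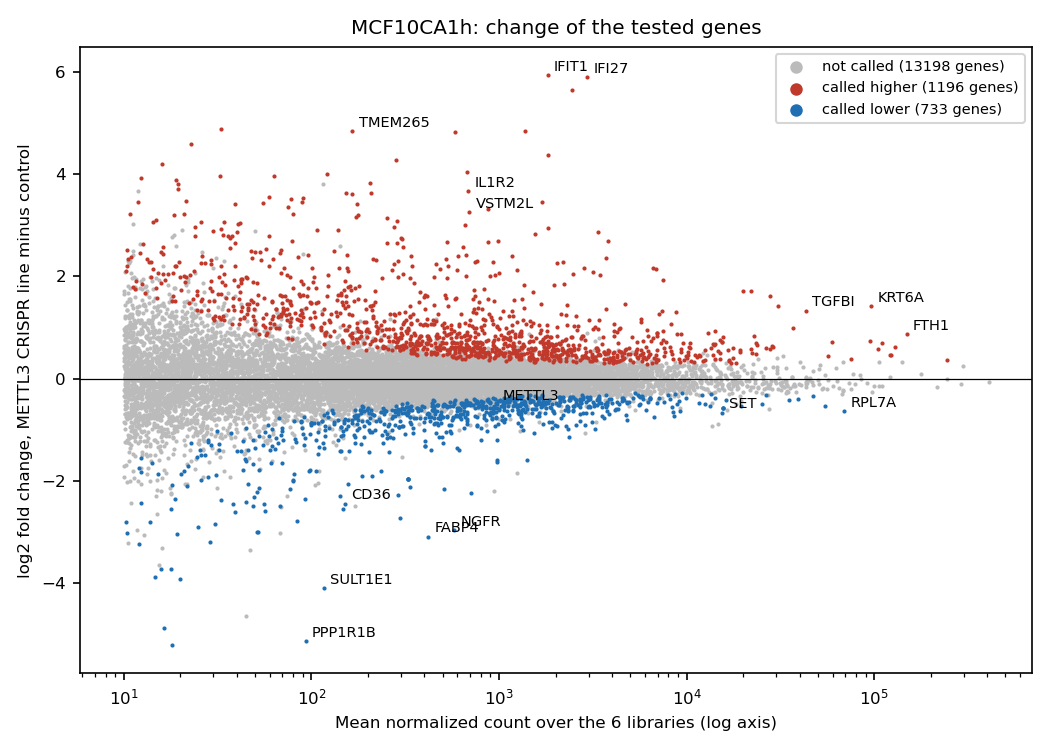
Each point is 1 of the 15127 tested genes, with the mean normalized count over the 6 libraries on a log axis and the log2 fold change (METTL3 CRISPR line minus control) on the vertical axis; red points were called higher (1196), blue points lower (733) and grey points were not called. The rises reach a log2 fold change of 5.93 (IFIT1), and among abundant genes KRT6A, TGFBI and FTH1 lie above 0 while RPL7A and SET lie below it.

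Genes of the interferon response and of antigen presentation rose, and they are given here only as the frame for the rest. Of 168 tested interferon-response genes, 105 were higher and 0 lower, against 7.91% higher among all tested genes, with a list median of 0.99. IFIT1, which binds foreign RNA, went from 64.3, 46.1 and 48.1 to 5892, 2103 and 2751. IFI27 went from 165, 54.4 and 91.9 to 6647, 4075 and 6618, and IFI6 from 120, 74.0 and 79.4 to 7339, 3253 and 3833. Replicate a of the METTL3 CRISPR line had the highest level of all 3 genes. IRF9, a transducer of interferon signals, was higher as well, with a log2 fold change of 3.01 (SE 0.17, adjusted p = 1.76e-05). MX1, a classical member, stayed low at 25.1 ± 16.2 (SD, n = 3) against 48.8 ± 12.4 (SD, n = 3) and did not pass the test (adjusted p = 0.169). Among MHC class II genes, 2 of 9 were higher, HLA-DPA1 from 16.9 ± 6.19 to 67.2 ± 22.3 (SD, n = 3 each) and HLA-DPB1 from 43.7 ± 14.4 to 160 ± 20.6 (SD, n = 3 each). The lists of interferon response and of MHC class I antigen presentation held 105 of the 1196 higher genes. The other 1091 higher genes (91.2%), the 2 class II genes included, lay outside them, with a median log2 fold change of 0.80. A gene outside these lists may still respond to interferon, so 91.2% is not a share of genes independent of it.

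The largest rises outside the interferon lists were in genes of several kinds. The ranking took called genes that averaged 50 or more and whose groups did not overlap, as was so for 32.7% of all tested genes, and the first 15 are described. TMEM265, a transmembrane protein, went from 5.48, 15.9 and 10.4 in the control to 207, 344 and 408, a log2 fold change of 4.84 (SE 0.39, adjusted p = 7.02e-05). NLRP3, the sensor of an inflammasome, went from 3.92, 13.7 and 36.2 to 233, 231 and 204 (log2 fold change 4.01). IL1R2, a decoy receptor that takes up interleukin 1 without signalling, went from 63.5, 129 and 114 to 1426, 1171 and 1203 (log2 fold change 3.68, SE 0.24, adjusted p = 2.63e-05). In all 3 genes the lowest METTL3 CRISPR library lay above the highest control library by several fold. FCAR, the Fc receptor for immunoglobulin A, went from 19.2, 7.75 and 1.35 to 146, 101 and 102, and HSH2D, an adaptor of lymphocyte signalling, from 26.6, 18.4 and 32.6 to 530, 286 and 334.

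Further large rises were in genes of epithelia and of nerve cells. VSTM2L, a secreted immunoglobulin-domain protein, went from 85.4, 138 and 181 to 1149, 1117 and 1506 (log2 fold change 3.26, SE 0.25). KCNQ3, a subunit of a voltage-gated potassium channel, went from 30.9, 35.1 and 34.6 to 274, 388 and 295 (log2 fold change 3.20, SE 0.21). KRT34, a keratin of hair, went from 13.5, 13.3 and 15.1 to 157, 195 and 143, and LCE3D, a late cornified envelope protein, from 40.1, 65.3 and 34.0 to 327, 797 and 248. For LCE3D, replicate b stood well above the other METTL3 CRISPR libraries. CCBE1, a secreted factor of lymph vessel growth, DENND2A, a Rab exchange factor, and SP140, a nuclear body protein, had log2 fold changes of 3.55, 3.43 and 3.22. The remaining 3 of the 15 were the long non-coding RNAs LINC02910 (3.63), LINC02376 (3.54) and ENSG00000278266 (3.16). The calls of all 15 rises held with any 1 of the 6 libraries left out, and 13 of the 15 were also called when all 18 libraries were fitted together; CCBE1 and LCE3D were not.

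**Figure D2:**
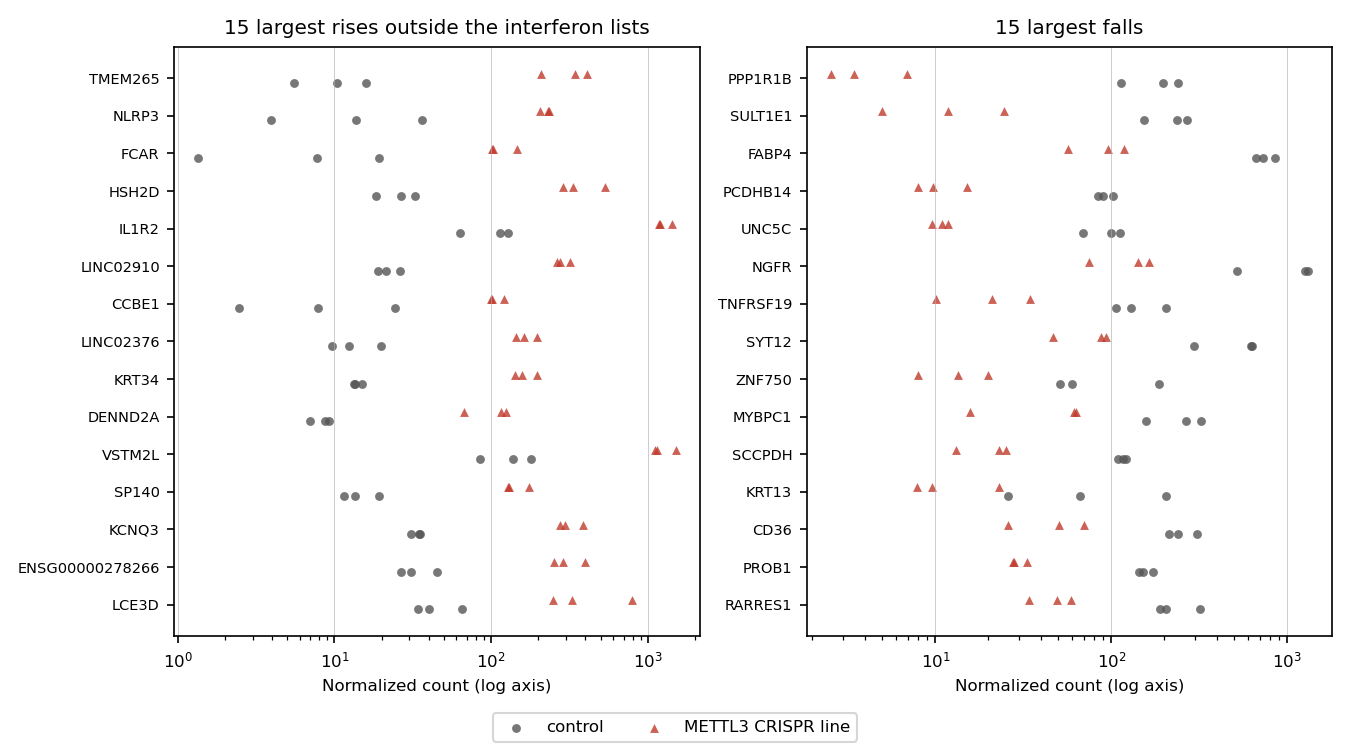
Normalized counts on a log axis for the 15 largest rises outside the interferon lists (left) and the 15 largest falls (right) in each library, with grey circles for the 3 control libraries and red triangles for the 3 METTL3 CRISPR libraries. In every row the triangles lie on 1 side of the circles, as the ranking required. KRT13 has a wide control spread, from 25.9 to 205.

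Of the long non-coding RNAs a share near that of all genes was higher. Among 586 tested long non-coding RNAs with LINC or antisense names, 41 were higher (7.0%, against 7.91% of all tested genes) and 2 lower (0.341%, against 4.85%), with a list median of 0.08, while 543 were not called. LINC02910, LINC02376 and ENSG00000278266 were each under 50 in every control library and at 143 or more in every METTL3 CRISPR library. Many bear the name of a coding gene on the opposite strand, and whether the counting used strand was not stated, so these cannot be told apart from reads of the partner gene. Without METTL3 replicate b, METTL3 replicate c or control replicate a the number higher was 22, 24 or 23.

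Part of the inflammatory mediators were higher too. Of 48 tested genes of NF-kB signalling and inflammatory cytokines, 19 were higher (39.6%, against 7.91% of all tested genes). In that list 1, CEBPD, was lower (2.08%, against 4.85%), and the median log2 fold change was 0.58. Without METTL3 replicate b, 12 were higher and 0 lower. The median over the members, relative to the control mean, was 0.40, -0.07 and -0.29 in control replicates a, b and c and 0.97, 0.54 and 0.45 in METTL3 replicates a, b and c, so control replicate a lay close below METTL3 replicate c. IL1B, which encodes interleukin 1 beta, went from 1324, 680 and 553 to 7383, 5931 and 4439 (log2 fold change 2.87, SE 0.29, adjusted p = 0.000228). CCL20, a chemokine of mucosal surfaces, went from 642, 301 and 270 to 2980, 3073 and 2068 (log2 fold change 2.83, SE 0.29). Replicate a was the highest control library for both genes and still lay below every METTL3 CRISPR library. IL32 and IL23A had log2 fold changes of 2.42 and 2.35, and ICAM1, the adhesion molecule for leukocytes, went from 437 ± 76.9 to 967 ± 160 (SD, n = 3 each). Among the genes that NF-kB induces directly, BIRC3, TNIP1 and NFKBIE were called higher, and NFKBIA, TNFAIP3 and CXCL8 were not called. NFKBIA was at 5835, 3042 and 3060 against 8701, 3442 and 4387, TNFAIP3 at 4842, 1484 and 1104 against 7631, 2088 and 2305, and CXCL8 at 1945, 1292 and 763 against 3614, 1484 and 1317. The ranges of these 3 genes overlapped between the groups, and replicate a was the highest library in each group.

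Complement and acute phase genes were higher in 11 of 22 tested and lower in 0 (median 0.88), where 7.91% of all tested genes were higher. Of the 11, C1S and PLSCR1 also belong to the interferon list. C1R and C1S, the proteases of the first complement component, moved alike, C1R from 242, 150 and 140 to 892, 886 and 838 (log2 fold change 2.33, SE 0.20) and C1S from 224, 140 and 132 to 758, 806 and 725 (2.24, SE 0.20). C3, the central component, was abundant and went from 11084, 7050 and 9871 to 24688, 34470 and 32635 (log2 fold change 1.72, SE 0.17, adjusted p = 0.00023). SAA1 went from 4814 ± 367 to 9066 ± 1666 (SD, n = 3 each).

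**Figure D3:**
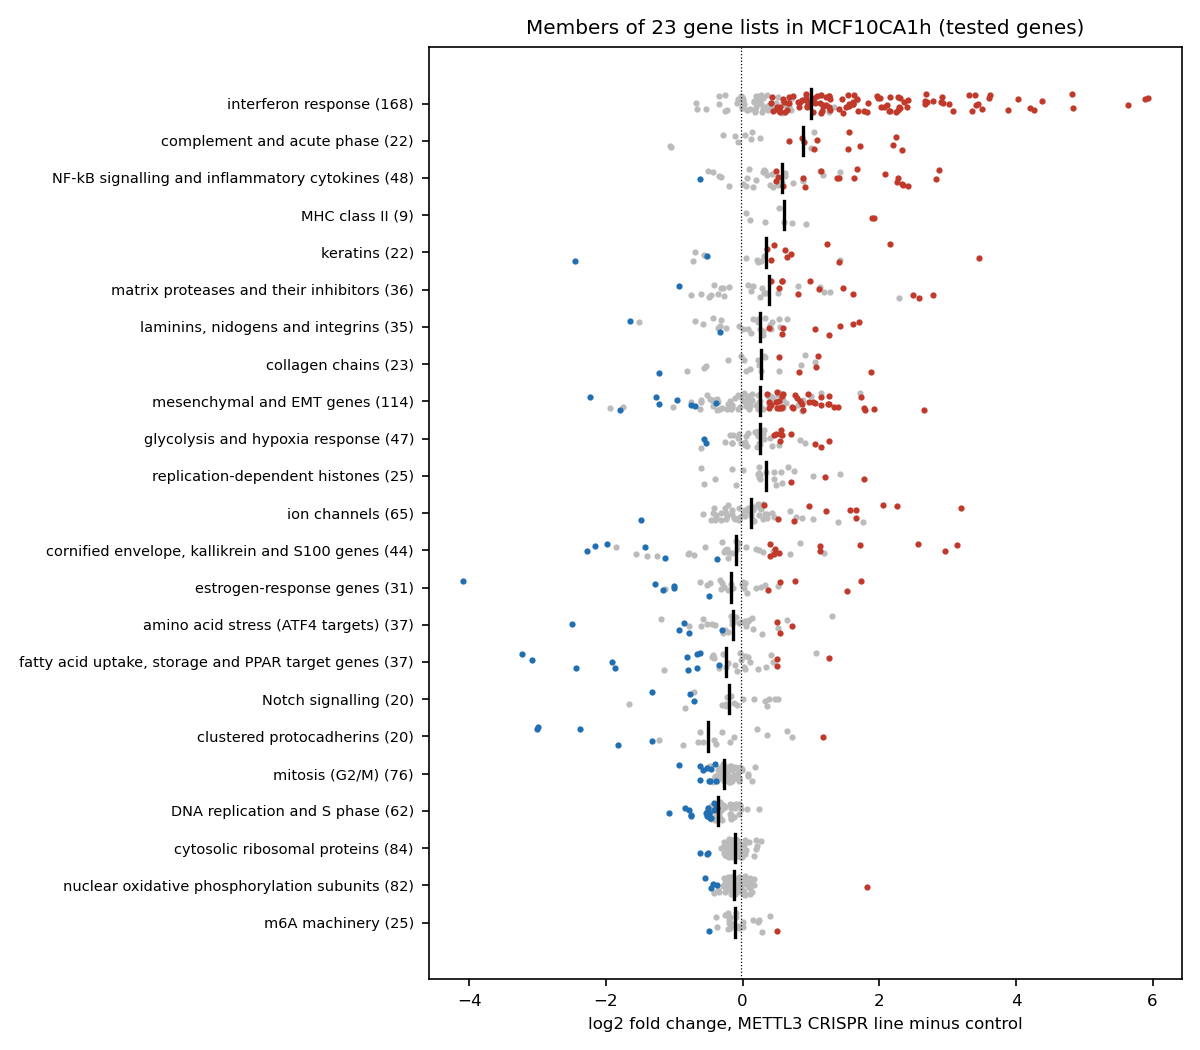
Log2 fold changes of the tested members of 23 gene lists, with the number of members in brackets, called higher in red, called lower in blue and not called in grey; the black bar is the median of each list and the dotted line that of everything tested. Interferon genes sit farthest to the right (median 0.99), and DNA replication genes (median -0.36) lie almost wholly to the left of 0.

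The largest rises in absolute terms were in 10 genes of which 4 encode keratins. KRT6A, a keratin induced in wounded and hyperproliferative epithelium, went from 48346, 57605 and 51301 to 134393, 164868 and 122471 (log2 fold change 1.42, SE 0.12, adjusted p = 0.000109). Its rise of 88159.7 in the mean normalized count was the largest outside the interferon lists. FTH1, the heavy chain of the iron store ferritin, followed, from 105284, 104623 and 104334 to 181957, 200339 and 194209 (log2 fold change 0.87, SE 0.09). TGFBI, a matrix protein induced by TGF-beta, went from 22230, 29243 and 22378 to 55992, 64624 and 63970 (1.33, SE 0.12), and ANXA2 from 84435 ± 4289 to 136276 ± 3469 (SD, n = 3 each). KRT5, KRT7, KRT81, S100A2 and MT2A were also among the 10 largest rises in normalized count. KRT5 had a log2 fold change of 0.36 (SE 0.09, adjusted p = 0.0331), and its call was lost without METTL3 replicate a (0.111), METTL3 replicate b (0.0988), control replicate a (0.138) or control replicate c (0.0962). Those of KRT7 (without METTL3 replicate b, adjusted p = 0.0565, or control replicate a, 0.0577), KRT81 (control replicate a, 0.0592), S100A2 (METTL3 replicate b, 0.056) and MT2A (control replicate c, 0.0514) also depended on single libraries.

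Of 22 tested keratins, 10 were higher (45.5%, against 7.91% of all tested genes) and 2 lower (9.09%, against 4.85%), with a median of 0.34. Without METTL3 replicate b or control replicate a 6 were higher. The basal keratin KRT14 went from 836, 1027 and 1247 to 4220, 5739 and 3908 (log2 fold change 2.15, SE 0.17, adjusted p = 7.02e-05), and KRT17 from 51080, 39492 and 45056 to 76109, 75894 and 69470 (0.71, SE 0.11). KRT7, a keratin of simple epithelium, was among the 10, while KRT8 and KRT18, which pair in simple epithelium, were not called, with KRT8 at 25126 ± 4773 against 25749 ± 3017 and KRT18 at 38642 ± 7216 against 44502 ± 3535 (SD, n = 3 each). KRT13, a keratin of stratified mucosa, was 1 of the 2 that were lower, and 0 or 1 were lower when any library was left out.

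LAMA3 and LAMB3, chains of the basement membrane laminin that hemidesmosomes hold, both rose. LAMA3 went from 9561, 11665 and 9604 to 31081, 40314 and 29932 (log2 fold change 1.71, SE 0.13, adjusted p = 5.3e-05), and LAMB3 from 19011, 17359 and 13743 to 40318, 54799 and 39750 (1.43, SE 0.15). Replicate b was the highest METTL3 CRISPR library for both. Their partners in the hemidesmosome included ITGB4, which went from 22285 ± 3224 to 33171 ± 2707 (log2 fold change 0.58, adjusted p = 0.01), and COL17A1, which went from 11285 ± 667 to 19966 ± 2026 (0.82, adjusted p = 0.000637; SD, n = 3 each). ITGA6, which pairs with ITGB4, stood at 12179 ± 2832 against 11543 ± 1328 (SD, n = 3 each) and did not pass. Over the list of laminins, nidogens and integrins, 8 of 35 were higher (22.9%) and 2 lower (5.71%), with a median of 0.26. When any library was left out, 0 or 1 were lower. Among all tested genes 7.91% were higher and 4.85% lower. Of 23 collagen chains 5 were higher and 1, COL3A1, was lower (-1.22, SE 0.32, adjusted p = 0.0343), a call that was lost in 4 of the 6 fits without a library.

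Genes of matrix turnover and of the mesenchymal programme were more often higher than lower. Among all tested genes 7.91% were higher and 4.85% lower. Of 36 tested matrix proteases and inhibitors, 12 were higher and 1 lower (median 0.38). SERPINB2, the inhibitor of plasminogen activators, went from 253, 158 and 117 to 1744, 964 and 597 (log2 fold change 2.57, SE 0.37), ADAMTS1 from 47.7, 70.2 and 16.2 to 225, 237 and 195 (2.49, SE 0.43), and PLAU, urokinase, from 1577 ± 205 to 2339 ± 207 (0.57; SD, n = 3 each). Of 114 tested mesenchymal and EMT genes, 36 were higher and 8 lower (median 0.25). FN1, fibronectin, went from 2594, 3453 and 3219 to 9157, 14083 and 12135 (log2 fold change 1.92, SE 0.16, adjusted p = 7.99e-05), and TAGLN, an actin-binding protein of contractile cells, from 66.7, 62.2 and 77.1 to 366, 482 and 468 (2.65, SE 0.18). IGFBP2 was the largest fall of that list, from 1360, 798 and 1347 to 262, 197 and 267 (-2.24, SE 0.21). In that list 26 were higher without METTL3 replicate b. The number lower was 5 without METTL3 replicate b, 5 without METTL3 replicate c and 4 without control replicate a.

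The classical markers of an epithelial to mesenchymal switch did not pass the test. CDH1, E-cadherin, was at 2974, 4148 and 3582 against 4179, 3927 and 4028 (log2 fold change 0.19, adjusted p = 0.327). CDH2, N-cadherin, was at 115, 107 and 99.0 against 116, 103 and 94.4 (-0.04, adjusted p = 0.922), and VIM, vimentin, at 28825, 27287 and 23486 against 29655, 35776 and 28083 (0.23, adjusted p = 0.231). MMP2 was at 539, 365 and 437 against 352, 287 and 237 (-0.61, SE 0.19, adjusted p = 0.0622), the only 1 of the 4 whose groups did not overlap, as was so for 15.3% of all tested genes in the same direction. ZEB1 and ZEB2 were low in both groups and not called, and EPCAM stood at 2239 ± 294 against 2229 ± 156 (SD, n = 3 each). Of the junction genes CDH4, R-cadherin, was higher, from 136, 228 and 215 to 904, 938 and 792 (2.21, SE 0.19), and OCLN, occludin, was lower, from 90.1, 164 and 141 to 57.2, 43.3 and 55.9 (-1.29, SE 0.27).

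Squamous differentiation genes split. Of 44 tested cornified envelope, kallikrein and S100 genes, 11 were higher (25%, against 7.91% of all tested genes) and 6 lower (13.6%, against 4.85%). The median of -0.09 changed sign between settings. RNASE7, an antimicrobial ribonuclease of skin, went from 44.5, 89.2 and 56.2 to 418, 599 and 445 (log2 fold change 2.97, SE 0.26, adjusted p = 0.000108), and S100A8 from 103, 83.5 and 97.2 to 160, 456 and 414 (1.72, SE 0.34). The kallikreins KLK6, KLK7 and KLK10, proteases that loosen the cornified layer, were lower. KLK7 was at 183, 238 and 1086 in the control and at 50.8, 81.2 and 96.3 in the METTL3 CRISPR line (-2.28, SE 0.55, adjusted p = 0.0237), so control replicate c carried most of the control mean; the call was lost without METTL3 replicate a (0.0641) or METTL3 replicate b (0.0659). ZNF750, a transcription factor of terminal epidermal differentiation, was lower as well, from 187, 51.1 and 59.6 to 20, 13.4 and 7.99 (-2.59, SE 0.51). Without METTL3 replicate b 6 members were higher and 2 lower, without control replicate a 7 were higher, and without METTL3 replicate a or control replicate c 3 were lower.

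Ranked by the same rule, the 15 largest falls included signalling receptors, metabolic enzymes and adhesion genes. PPP1R1B, an inhibitor of protein phosphatase 1 that responds to cyclic AMP, fell to near 0, from 238, 113 and 196 to 3.47, 2.54 and 6.86 (log2 fold change -5.13, SE 0.41, adjusted p = 7.02e-05). SULT1E1, which inactivates estrogens by adding sulfate, fell from 267, 153 and 236 to 11.8, 4.97 and 24.6 (-4.10, SE 0.47, adjusted p = 0.000529). In both genes every METTL3 CRISPR library was several fold below the lowest control library. NGFR, the low-affinity neurotrophin receptor and a marker of basal cells, fell from 1262, 516 and 1313 to 142, 75.0 and 164 (-2.96, SE 0.37). TNFRSF19, a receptor of the tumour necrosis factor family, fell from 204, 106 and 129 to 34.5, 10.1 and 20.9 (-2.79, SE 0.42), and UNC5C, a netrin receptor, from 112, 69.0 and 100 to 10.9, 9.51 and 11.8 (-2.99, SE 0.31). SYT12, a synaptotagmin, fell from 620, 296 and 626 to 93.2, 46.7 and 87.1 (-2.73, SE 0.33). Control replicate b was the lowest control library for PPP1R1B, SULT1E1, NGFR, TNFRSF19, UNC5C and SYT12, and remained above the METTL3 CRISPR libraries in each.

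The other large falls were PCDHB14 (log2 fold change -3.00), MYBPC1, a myosin-binding protein (-2.56), SCCPDH (-2.49), PROB1 (-2.36) and RARRES1, a retinoid-induced gene (-2.30), together with FABP4 and CD36 below. PROB1 varied little within a group, at 173, 151 and 144 against 33.2, 27.5 and 28.1. SCCPDH was at 116, 122 and 109 against 13.1, 23.1 and 25.2, and so varied little in the control only. KRT13, at 25.9, 66.2 and 205 against 9.59, 7.89 and 22.96 (-2.45, SE 0.67, adjusted p = 0.0372), was the least secure of the 15, and its call was lost without METTL3 replicate a (adjusted p = 0.0828), METTL3 replicate b (0.124), control replicate b (0.0791) or control replicate c (0.11). The other 14 calls held with any 1 library left out, and 11 of the 15 were called with all 18 libraries fitted together. Of the 174 genes lower by at least 1 on the log2 scale, 30 lay on chromosomes 9 and 10, which are described below. These 2 chromosomes held 8.12% of all tested genes.

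Fatty acid handling was a group in which more members were lower than higher. Of 37 tested genes of fatty acid uptake, storage and PPAR targets, 11 were lower, against 4.85% of all tested genes, and 3 higher (median -0.25). FABP4, the adipocyte fatty acid-binding protein, fell from 659, 852 and 725 to 96.2, 118 and 56.5 (log2 fold change -3.09, SE 0.25, adjusted p = 7.02e-05). CD36, the fatty acid translocase, fell from 305, 240 and 213 to 69.9, 25.9 and 50.4 (-2.44, SE 0.33), and PPARGC1A, the coactivator that drives mitochondrial oxidation, from 247, 366 and 368 to 128, 43.3 and 110 (-1.91, SE 0.36). The summed level of the 8 adipocyte markers, FABP4 among them, was 1417 to 1595 in the control and 860 to 876 in the METTL3 CRISPR libraries, and ADIPOQ, PLIN1 and LEP of that list did not pass 7.72 in any library. PPARG itself, the receptor, stood at 744 ± 47.4 against 764 ± 27.8 (SD, n = 3 each). ANGPTL4, a PPAR and hypoxia target that inhibits lipoprotein lipase, went the other way, from 3626, 4450 and 4458 to 8779, 11926 and 9659 (1.27, SE 0.13). Of the 11 lower members, 2 lay on chromosomes 9 or 10, while 34 of the 37 tested members lay outside them. The number lower was 7 without METTL3 replicate c, and also without control replicate a, b or c. In sterol synthesis 6 of 43 were higher and 1 lower (median 0.10), with 3 higher without METTL3 replicate b or control replicate a; FADS3, a desaturase homologue, went from 603 ± 77.0 to 1508 ± 178 (SD, n = 3 each).

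Genes of DNA replication were shifted downwards as a set, by small steps. Of 62 tested genes of DNA replication and S phase, 17 were lower (27.4%, against 4.85% of all tested genes) and 0 higher (against 7.91%). Of the 62, 60 had a log2 fold change below 0, and the median was -0.36, against -0.02 over all tested genes. MCM2, a subunit of the replicative helicase, went from 4050, 4001 and 3734 to 2957, 2827 and 2471 (log2 fold change -0.52, SE 0.10, adjusted p = 0.00742). E2F2, a transcription factor of S phase, fell deepest, from 288, 394 and 355 to 171, 160 and 154 (-1.08, SE 0.16). PCNA, the sliding clamp, stood at 5213 ± 407 against 4646 ± 682 (SD, n = 3 each) and was not called. Of the 17 lower members, 16 lay outside chromosomes 9 and 10, as did 61 of the 62 tested members. The number lower was 10 without METTL3 replicate b, METTL3 replicate c or control replicate a, and 0 with all 18 libraries fitted together. The median over the members was -0.22, -0.42 and -0.44 in METTL3 replicates a, b and c and between -0.05 and 0.03 in the control libraries.

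The mitosis list showed the same direction with fewer calls. Of 76 tested members 10 were lower (13.2%, against 4.85% of all tested genes) and 0 higher (against 7.91%), with a median of -0.28. Outside chromosomes 9 and 10 lay 5 of the 10, and 68 of the 76 tested members. MKI67, the proliferation antigen Ki-67, went from 11634, 11509 and 10434 to 7994, 6711 and 7025 (log2 fold change -0.63, SE 0.10, adjusted p = 0.00256). MKI67, KIF11 and KIF20B lie on chromosome 10 and SMC2 and CKS2 on chromosome 9; the call of CKS2 was lost in 3 of the 6 fits without a library. CCNB1 stood at 6004 ± 551 against 5176 ± 624 and AURKA at 3661 ± 170 against 3880 ± 163 (SD, n = 3 each), and neither was called. The number lower was 5 without control replicate a and 6 without control replicate c. CDKN1A, the p21 inhibitor of cyclin-dependent kinases, was higher, from 6636, 5842 and 7287 to 11391, 12416 and 12379 (0.88, SE 0.10, adjusted p = 0.000482), while MYC, which drives growth, was lower, from 15569, 13447 and 15190 to 10296, 9987 and 11053 (-0.49, SE 0.09, adjusted p = 0.00658). Of 39 tested p53 targets 6 were higher, TP53I3 among them (1.05, SE 0.13), and 2 lower; TP73 fell from 102, 84.7 and 62.4 to 20.03, 9.87 and 18.6 (-2.32, SE 0.35). MDM2, the classical p53 target, stood at 995 ± 125 against 1293 ± 182 (SD, n = 3 each) and was not called.

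Of the enzymes that make serine and asparagine, PSAT1, PHGDH and ASNS were lower, and PSPH, the last enzyme of serine synthesis, stood at 521 ± 42.1 against 430 ± 63.1 (SD, n = 3 each) and was not called. PSAT1 went from 3060, 2868 and 3061 to 1649, 1539 and 1535 (log2 fold change -0.93, SE 0.09, adjusted p = 0.00018), PHGDH from 4526, 3490 and 4122 to 2222, 2273 and 2166 (-0.86, SE 0.11), and ASNS from 895, 705 and 777 to 435, 412 and 538 (-0.78, SE 0.14). PSAT1 lies on chromosome 9 and the other 2 do not. ALDH1L2, the mitochondrial folate enzyme, fell from 73.0, 104 and 72.0 to 10.6, 26.2 and 9.04 (-2.50, SE 0.41). All 4 belong to the list of ATF4 targets, in which 5 of 37 were lower (13.5%) and 3 higher (8.11%). Among all tested genes 4.85% were lower and 7.91% higher. TRIB3, another target, rose from 4131 ± 378 to 6807 ± 611 (SD, n = 3 each, log2 fold change 0.72, SE 0.10). ATF4 stood at 15738 ± 2033 against 13571 ± 495 (SD, n = 3 each). Glycolysis and hypoxia genes were higher in 10 of 47 and lower in 2 (median 0.25), or higher in 6 without METTL3 replicate b; NDRG1 rose from 2142 ± 582 to 4712 ± 1235 and SLC2A3, a glucose transporter, from 260 ± 16.2 to 544 ± 50.1 (SD, n = 3 each), and GPI, a glycolytic enzyme, fell from 22912 ± 998 to 15901 ± 1947 (SD, n = 3 each). LDHA and SLC2A1 were not called.

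Growth factor pathways held members of both directions. Among ligands of the EGF receptor family, AREG went from 11095 ± 1537 to 18908 ± 3186, EPGN from 1787 ± 306 to 3106 ± 157 and NRG1 from 256 ± 69.1 to 568 ± 77.0 (SD, n = 3 each; log2 fold changes 0.76, 0.81 and 1.17), and the receptors EGFR, ERBB2 and ERBB3 were not called. In the TGF-beta and BMP list 5 of 45 were higher (11.1%, against 7.91% of all tested genes) and 6 lower (13.3%, against 4.85%). TGFBR2, the type II receptor, went from 4698, 5006 and 4897 to 9406, 7984 and 9930 (log2 fold change 0.90, SE 0.10, adjusted p = 0.0004), while SMAD6, an inhibitor of BMP signalling, fell from 190, 135 and 131 to 59.0, 29.4 and 43.95 (-1.79, SE 0.29). Binding proteins of the insulin-like growth factors were divided, with IGFBP6 and IGFBP7 higher (1.01 and 0.84) and IGFBP2 and IGFBP3 lower (-2.24 and -0.70); the call of IGFBP3 was lost without METTL3 replicate a (adjusted p = 0.0644), METTL3 replicate c (0.0814) or control replicate a (0.0881). Of 20 Notch genes 3 were lower and 0 higher, and NOTCH1 (-0.77, SE 0.10) and NRARP, its feedback target (-1.33, SE 0.23), both lie on chromosome 9.

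Among surface molecules the clustered protocadherins were low-level genes with several falls. Of 20 tested, 5 were lower (25%, against 4.85% of all tested genes) and 1 higher (5%, against 7.91%), with a median of -0.50. The median over the members, relative to the control mean, was -0.24, -1.13 and -0.26 in METTL3 replicates a, b and c, so replicate b lay far below the others. It was between -0.10 and 0.08 in the control libraries. PCDHB14 fell from 102, 89.4 and 83.7 to 15.1, 8.0 and 9.70 (log2 fold change -3.00, SE 0.33, adjusted p = 0.000364), the only 1 of the 5 falls that held with any library left out. The number lower was 1, 2 or 3 without control replicate a, b or c. Protocadherin genes of a cluster share long stretches of sequence, so reads can be split among them. Among guidance receptors ROBO4 rose from 22.3, 31.2 and 20.2 to 163, 226 and 180 (2.91, SE 0.26), SEMA7A from 54.1, 98.4 and 69.5 to 160, 325 and 207 (1.61, SE 0.30), and RGMA fell from 69.0, 38.3 and 90.5 to 11.2, 13.4 and 7.89 (-2.44, SE 0.40). L1CAM, a neural adhesion molecule, rose from 305, 497 and 323 to 1234, 1867 and 1454 (2.03, SE 0.20). Ion channel genes were higher in 11 of 65 (16.9%, against 7.91% of all tested genes) and lower in 1 (1.54%, against 4.85%). Of these, 7 were higher without METTL3 replicate a and 6 without METTL3 replicate b.

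Of 84 cytosolic ribosomal protein genes, 3 were lower (3.57%) and 0 higher, and all 3 lie on chromosome 9. Both shares were under those of all tested genes, 4.85% lower and 7.91% higher. RPL7A went from 86580, 73575 and 91545 to 50697, 55167 and 56499 (log2 fold change -0.63, SE 0.11, adjusted p = 0.00406), RPS6 from 65904, 58147 and 69230 to 43896, 42094 and 47895 (-0.53, SE 0.10) and RPL35 from 31642, 25657 and 31135 to 18841, 20814 and 22701 (-0.50, SE 0.11). The first 2 were the largest falls in normalized count of any called gene outside the interferon lists. The median of the whole list was -0.11, and without control replicate b 6 members were lower. RPL35 was not called without METTL3 replicate a (adjusted p = 0.0507), control replicate a (0.0748) or control replicate c (0.0561). SET, a histone chaperone also on chromosome 9, went from 18496, 19185 and 19303 to 12413, 11617 and 11920 (-0.66, SE 0.08, adjusted p = 0.000647). Entries of the ribosomal RNA repeats on chromosome 21 were lower too. The 4 entries for 5.8S ribosomal RNA held identical values, 446, 479 and 638 against 129, 114 and 152 (-1.97, SE 0.18, adjusted p = 0.000149), so they share reads and count as 1 measurement, and how much ribosomal RNA a library retains depends on its depletion.

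The lower genes were concentrated on chromosome 9. There, 193 of 619 tested genes (31.2%) were lower and 13 higher, against 4.85% lower over all chromosomes. The median log2 fold change of the chromosome was -0.40, and its median against the control mean was -0.39, -0.37 and -0.40 in METTL3 replicates a, b and c and between -0.02 and 0.02 in the control libraries. Of its tested genes 81.1% had a log2 fold change below 0. Chromosome 10 had 73 of 610 genes lower (11.97%) and a median of -0.21, with -0.17, -0.23 and -0.23 in the 3 METTL3 CRISPR libraries. Chromosome 20 had 66 of 403 higher (16.4%), 5 lower and a median of 0.16, with 0.16, 0.20 and 0.17. With 1 library left out, chromosome 9 had 101 (without control replicate a) to 165 lower genes, and 128 without METTL3 replicate b. Chromosome 10 had 41 to 78 lower genes, and chromosome 20 had 42 (without METTL3 replicate b) to 68 higher genes. Over the other 20 chromosomes medians lay between -0.05 and 0.04, and between 2.10% and 5.03% of the tested genes were lower.

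**Figure D4:**
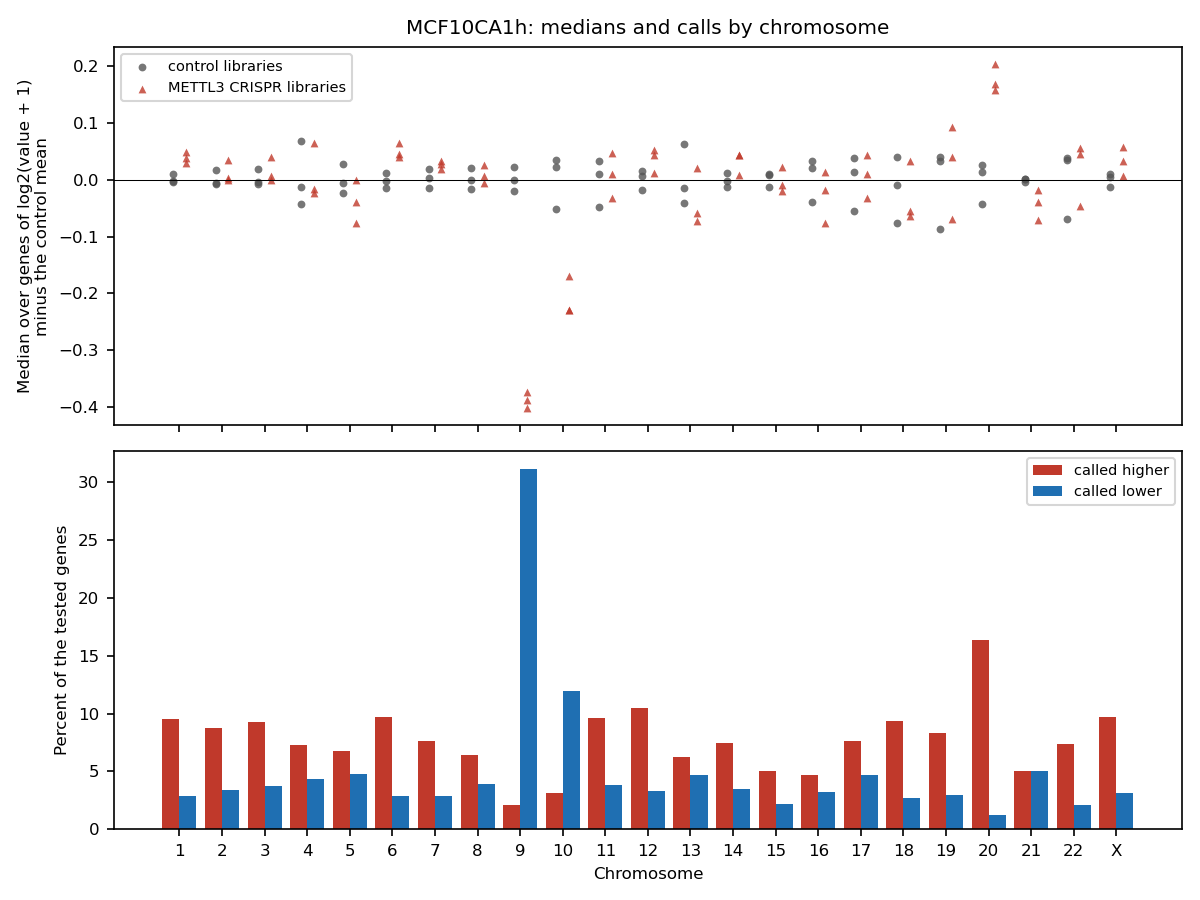
Upper panel: for each chromosome, the median over its tested genes of log2(value + 1) minus the control mean, in each of the 3 control libraries (grey circles) and 3 METTL3 CRISPR libraries (red triangles). Lower panel: percent of the tested genes called higher (red bars) or lower (blue bars); chromosome 9 stands apart with 31.2% lower and a median near -0.4 in all 3 METTL3 CRISPR libraries, and chromosome 20 with 16.4% higher.

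The shift ran along the whole of chromosome 9 and was deeper toward its far end. In bins of 10 Mb with at least 20 tested genes, counted from the start of the hg38 sequence, the median was -0.16 in the first bin and -0.25 from 30 to 40 Mb, and -0.48, -0.48, -0.49 and -0.48 in the 4 bins from 100 to 140 Mb. In the bin from 120 to 130 Mb 50 of 118 genes were lower and 106 were below 0. On chromosome 10 the first bin was at -0.09 and that from 120 to 130 Mb at -0.32, where 37 of 40 genes were below 0. Windows of 10 neighbouring tested genes with at least 5 called lower joined into 14 stretches in the genome, 11 of them on chromosome 9. The richest, chr9:127866486-129753042, held 30 lower genes among 51 with a median of -0.53, SET, URM1, GLE1, CRAT and NUP188 among them, and chr9:132375548-136728184 held 26 among 48, with RPL7A, WDR5, BRD3 and NOTCH1; BRD3 was not called without control replicate a.

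Without chromosome 9 there were 540 lower genes and without chromosomes 9 and 10 there were 467, or 3.36% of the genes tested elsewhere, with a median log2 fold change of -0.70 against -0.62 for the lower genes of chromosome 9. With all 18 libraries fitted together, 18 of 661 genes of chromosome 9 (2.72%) were lower, against 0.428% of all genes, and its median was -0.40. In the METTL3 CRISPR line of MCF10A the same chromosome had a median of -0.00 against its own control, and in MCF10AT1 of 0.16. In MCF10AT1 chromosome medians ranged from -0.52 to 0.45, and in MCF10A from -0.05 to 0.03. No measurement of DNA was among the data used here.

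There were 14 stretches of neighbouring genes that were higher, and several lay at gene clusters. These were the type II keratins on chromosome 12 (9 of 19 genes higher, KRT6A, KRT6B, KRT6C, KRT5, KRT7 and KRT81 among them), the type I keratins on chromosome 17 (KRT34, KRT14 and KRT17), the interleukin 1 genes on chromosome 2 (IL1A, IL1B and IL1RN, with PAX8 and PSD4 beyond them), the speckled protein genes (SP100, SP110, SP140 and SP140L), the TRIM genes of chromosome 11, both parts of the major histocompatibility complex and an epidermal stretch on chromosome 1 (S100A10, S100A11, CRCT1, LCE3D and IVL, of which CRCT1 and IVL were not called in 4 of the 6 fits without a library). Other stretches held no such cluster, among them 1 on chromosome 20 with TRIB3, RBCK1 and SNPH (9 of 19 genes higher). At the far end of chromosome 12, MMP17 stood with 4 long non-coding RNAs, LINC02376 and ENSG00000278266 among them. The genes KRT6A, KRT6B and KRT6C are near-identical, as are the HLA genes, and the authors' counting could split reads among them. KRT6B and MMP17 were not called in 3 of the 6 fits without a library.

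Promoters were read for 11021 of the 15127 tested genes (72.9%) from RefSeq (GRCh38.p14), as 250 bases before and 50 after 1 start site a gene, and searched on both strands. The interferon-stimulated response element (GAAA, any 2 bases, GAAA) stood in 2.90% of all these promoters and in 3.53% of the 822 higher genes outside the interferon and antigen-presentation lists. Within those lists it stood in 55.1% of the 78 higher genes and in 32.6% of the 46 genes that were not called. The AP-1 sequence (TGANTCA) stood in 5.03% of all promoters, in 11.2% of the other higher genes (92 of 822), in 10.3% of the higher interferon genes and in 2.85% of the lower genes (16 of 561). The E-box CACGTG stood in 10.04% of all promoters, in 7.79% of the other higher genes and in 14.3% of the lower genes, or 15.7% of those outside chromosomes 9 and 10. The cyclic AMP element (TGACGTCA) stood in 3.17% of all promoters and 4.10% of the lower genes. It was in 7.41% of the lower genes of chromosome 9 (12 of 162) and in 2.67% of those outside chromosomes 9 and 10. The antioxidant element (TGACNNNGC) stood in 15.1% of all promoters and 15.7% of the lower genes, and CCAAT in 36.8% and 38.7%. An AP-1 sequence can also be the start of an antioxidant element, and 140 promoters held both. These are matches of letters and not measured binding.

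The 250 bases before the start of 6 higher genes are shown because they carry these matches, in capitals on the strand of the gene. IFIT1 and ISG15 stand for the interferon list, LINC02376 for a non-coding RNA outside it with the same element, and LAMA3, IL1A and S100A2 for the AP-1 group. They lie at chr10:89392373-89392622 (plus strand), chr1:1013247-1013496 (plus), chr12:127284284-127284533 (minus), chr18:23872770-23873019 (plus), chr2:112784494-112784743 (minus) and chr1:153565845-153566094 (minus) in GRCh38.p14, upstream of the transcribed part.
IFIT1: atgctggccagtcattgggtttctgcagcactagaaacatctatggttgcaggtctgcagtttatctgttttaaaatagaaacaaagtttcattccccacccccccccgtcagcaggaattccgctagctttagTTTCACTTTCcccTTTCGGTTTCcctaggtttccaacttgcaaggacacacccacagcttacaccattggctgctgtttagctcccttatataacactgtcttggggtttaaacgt
ISG15: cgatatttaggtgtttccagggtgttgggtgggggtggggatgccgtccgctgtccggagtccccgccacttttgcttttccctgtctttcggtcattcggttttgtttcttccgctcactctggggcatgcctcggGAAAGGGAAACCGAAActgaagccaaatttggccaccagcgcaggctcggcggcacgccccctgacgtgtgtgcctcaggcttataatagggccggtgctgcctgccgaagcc
LINC02376: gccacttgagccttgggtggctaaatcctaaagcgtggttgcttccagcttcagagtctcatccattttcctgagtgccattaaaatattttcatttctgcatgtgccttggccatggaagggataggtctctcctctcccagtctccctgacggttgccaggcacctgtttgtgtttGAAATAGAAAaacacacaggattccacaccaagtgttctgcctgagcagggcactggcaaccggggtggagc
LAMA3: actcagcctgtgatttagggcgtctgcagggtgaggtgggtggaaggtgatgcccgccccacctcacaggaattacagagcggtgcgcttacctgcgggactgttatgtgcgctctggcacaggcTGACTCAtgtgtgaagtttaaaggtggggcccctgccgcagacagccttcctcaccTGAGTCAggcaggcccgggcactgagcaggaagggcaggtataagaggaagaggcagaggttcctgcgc
IL1A: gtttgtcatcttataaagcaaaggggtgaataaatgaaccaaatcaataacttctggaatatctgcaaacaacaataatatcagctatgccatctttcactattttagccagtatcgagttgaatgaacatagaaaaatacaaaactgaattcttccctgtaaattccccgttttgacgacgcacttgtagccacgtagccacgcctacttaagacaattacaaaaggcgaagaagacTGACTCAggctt
S100A2: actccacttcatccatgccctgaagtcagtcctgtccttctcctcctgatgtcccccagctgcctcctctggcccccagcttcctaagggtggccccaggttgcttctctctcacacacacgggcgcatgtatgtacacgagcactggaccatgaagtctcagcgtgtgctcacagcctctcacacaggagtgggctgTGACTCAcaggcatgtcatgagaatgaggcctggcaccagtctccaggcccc
In IFIT1 the 2 elements begin 116 and 103 bases before the start, in ISG15 they overlap at 113 and 107, and in LINC02376 the only 1 begins at 72. The AP-1 sequences begin 125 and 69 bases before the start of LAMA3, 12 before that of IL1A and 52 before that of S100A2. LAMA3 and IL1A rose by 1.71 and 2.26 on the log2 scale and S100A2 by 0.46.

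The largest changes of MCF10CA1h were set against those of the other METTL3 CRISPR lines in a single fit of the 18 libraries. For each of the 10 largest rises and 10 largest falls the difference between the effect in MCF10CA1h and that in MCF10A or MCF10AT1 was tested. The genes were chosen for their size in MCF10CA1h, which by itself makes a difference from another line more likely, so their counts are a description and are not to be read against the share over all genes. Against MCF10A 9 of the 10 rises and 9 of the 10 falls differed (5.34% of all genes did), and against MCF10AT1 5 of the 10 rises and 6 of the 10 falls did (18.2% of all genes). With a pseudocount of 5 in place of 1, 10 rises and 10 falls differed from MCF10A and 8 rises and 6 falls from MCF10AT1, with IL1R2, LINC02376 and DENND2A joining. SULT1E1, with a log2 fold change of -4.10 in MCF10CA1h, had 0.14 in MCF10A and 0.32 in MCF10AT1. NLRP3 had 4.01 in MCF10CA1h, 3.63 in MCF10AT1 and -1.79 in MCF10A, and IL1R2 had 3.68, 2.45 and 0.29. TNFRSF19 had -2.79 in MCF10CA1h, -3.71 in MCF10AT1 and 2.49 in MCF10A. FABP4 had -3.09 in MCF10CA1h and 10.01 in MCF10AT1, the largest of these differences. Several of the genes were near 0 in MCF10A, where NLRP3 averaged 3.21 in the control and 0.16 in the METTL3 CRISPR line, FCAR 2.66 and 0.93, and LINC02376 1.75 and 0, so that their fold changes there are set largely by the pseudocount. The same holds in MCF10AT1 for FCAR (1.24 and 0), LINC02910 (0.11 and 0.63) and LINC02376 (0 and 4.32). There FABP4 averaged 1.90 in the control and TMEM265 0.71 in the METTL3 CRISPR line. With a pseudocount of 5 their differences from MCF10AT1 were -11.51 and 9.93.

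**Figure D5:**
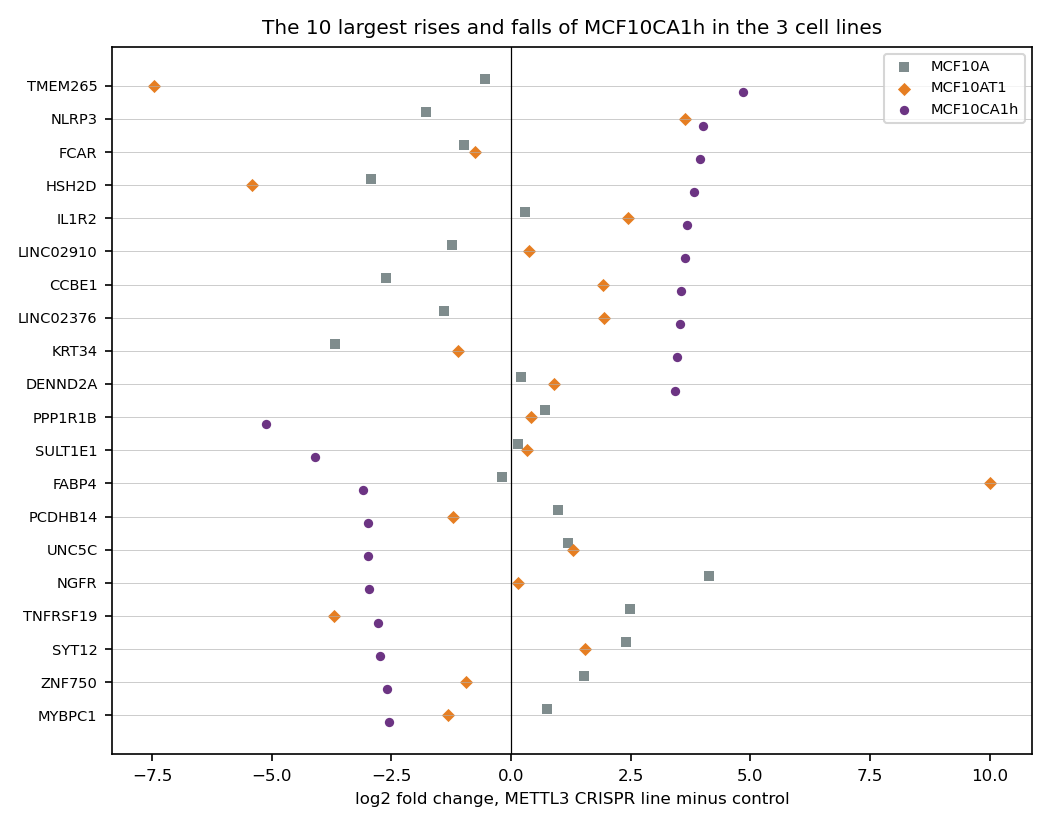
Log2 fold changes (METTL3 CRISPR line minus its own control) of the 10 largest rises outside the interferon lists and the 10 largest falls of MCF10CA1h, in MCF10A (grey squares), MCF10AT1 (orange diamonds) and MCF10CA1h (purple circles). In MCF10A 8 of the 10 rises lie below 0 and 9 of the 10 falls lie above it, and FABP4 in MCF10AT1 (10.01) and TMEM265 in MCF10AT1 (-7.47) lie farthest from MCF10CA1h.

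Several lists held few calls. The 13 mitochondrially encoded genes had 0 called by limma, with 1 at an unadjusted p under 0.05, and a median of -0.01. Of 82 nuclear oxidative phosphorylation subunits 1 was higher and 4 lower, 2 of the 4 on chromosomes 9 or 10, and of 20 HOX genes 1 was lower. Of 394 tested zinc finger genes 13 were higher and 11 lower, 6 of the 11 on chromosomes 9 or 10. When any library was left out, 5 to 15 were higher and 4 to 13 lower. Outside those chromosomes lay 76 of the 82 subunits and 366 of the 394 zinc finger genes. Of 19 breast lineage transcription factors 1, BCL11A, was lower, from 114, 148 and 216 to 39.2, 52.9 and 78.1 (log2 fold change -1.48, SE 0.31, adjusted p = 0.0121), and GATA3 and TP63 were not called. Solute carriers held more calls than these lists, with 21 of 201 higher (10.4%) and 19 lower (9.45%), where 7.91% and 4.85% of all tested genes were, and with 13 to 19 higher and 4 to 14 lower when any library was left out.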

How the data were processed

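The deposited values were signal values, namely gene counts estimated by kallisto 0.46.1 on hg38 that the authors summed to genes with tximport and normalized with DESeq2 1.26.0 in R 4.1.1, per the labels and the methods. They are not whole reads, and reads could not be recovered from their low values, so no count test was run, the depth per library is unknown and the precision rests on the 3 libraries per group. Genes that averaged 10 or more in the 6 libraries were kept, values were taken as log2(value + 1), and limma 3.58.1 in R 4.3.3 with an intensity trend compared the groups, with Benjamini-Hochberg adjustment over all 15127 genes and a threshold of 0.05. A fold change on that scale understates the change of low genes. "Called" means past that threshold, and values written as p in the text are limma's adjusted p unless a permutation test is named. The difference between cell lines was fitted over all 18 libraries in 1 limma model. Gene positions and biotypes were those of GENCODE release 44 (hg38), and promoters those of RefSeq. Tables were made with Python 3.11.15, pandas 2.3.3, NumPy 2.4.6 and SciPy 1.17.1, and the fit was tested on simulated data. The genes named were METTL3, the 15 largest rises (outside the interferon and antigen-presentation lists) and 15 largest falls among called genes that averaged 50 or more with no overlap of the groups, the 5 largest interferon rises, the 10 largest rises and falls in normalized count, key members and up to 4 called members of each of 51 gene lists, called genes of the chromosome stretches and the markers CDH1, CDH2, VIM and MMP2. Genes outside this rule were named after their values were seen. Members and lists were chosen with earlier results of these data known. Of 60579 rows, 24646 held no values and were not used. The alternatives were other pseudocounts, filters, scalings and thresholds, a fit without the trend, a fit of all 18 libraries, a replicate block and leaving out each library; leaving out chromosomes 9, 10 and 20 was chosen after seeing the data.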

Additional observations from a re-analysis of the deposited data

Results flagged for a closer look

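For the following genes the effect of the METTL3 CRISPR line in MCF10CA1h differed from that in another cell line at an adjusted p under 0.05, tested as the difference itself in 1 limma fit of the 18 libraries. The genes were chosen for their size in MCF10CA1h. Each value is the log2 fold change in MCF10CA1h minus that in the other line, with a pseudocount of 1.

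Among the rises, the difference was 5.38 for TMEM265 against MCF10A and 12.30 against MCF10AT1. It was 4.95 and 4.70 for FCAR, 6.75 and 9.23 for HSH2D, 4.86 and 3.25 for LINC02910, and 7.15 and 4.57 for KRT34, in the same order. Against MCF10A, and not MCF10AT1 at this pseudocount, it was 5.79 for NLRP3, 3.39 for IL1R2, 6.18 for CCBE1 and 4.93 for LINC02376. With a pseudocount of 5, IL1R2 (limma adjusted p = 0.0127) and LINC02376 (0.00156) also differed from MCF10AT1. NLRP3 averaged 3.21 and 0.16 in the 2 groups of MCF10A, and its difference was 4.23 with that pseudocount. TMEM265 averaged 0.71 in the METTL3 CRISPR line of MCF10AT1, and its difference from MCF10AT1 was 9.93 with that pseudocount.

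Among the falls, the difference was -5.84 against MCF10A and -5.55 against MCF10AT1 for PPP1R1B. It was -4.23 and -4.42 for SULT1E1, -4.18 and -4.28 for UNC5C, -7.11 and -3.11 for NGFR, and -5.14 and -4.28 for SYT12. Against MCF10A, and not MCF10AT1 at either pseudocount, it was -3.97 for PCDHB14, -5.28 for TNFRSF19, -4.11 for ZNF750 and -3.31 for MYBPC1. Against MCF10AT1 it was -13.10 for FABP4, which differed from MCF10A only with a pseudocount of 5 (limma adjusted p = 0.0465). FABP4 averaged 1.90 in the MCF10AT1 control, and its difference from MCF10AT1 was -11.51 with that pseudocount.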

How the results depend on the processing

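The direction of METTL3 and of the medians of chromosomes 9, 10 and 20 was the same under every alternative run. Without the intensity trend 1123 genes were called (765 higher, 358 lower), with all 18 libraries fitted together 248 (180 and 68), at an adjusted p under 0.01 799 (572 and 227), and with a required change of at least 1 on the log2 scale 669 (495 and 174). With 1 library left out the number called was between 1089 (without control replicate a) and 1785 (without METTL3 replicate a), with 714 to 1066 higher and 321 to 719 lower; it was 1114 without METTL3 replicate b. Without chromosomes 9 and 10 467 were lower. METTL3 kept its log2 fold change of -0.49 without the trend (adjusted p = 0.0742) and with all 18 libraries fitted together (adjusted p = 0.501) but was not called, and it ranged from -0.56 to -0.40 with 1 library left out. The median of chromosome 9 was -0.31 without a filter, -0.43 at a mean of at least 50, -0.46 at equal sums and -0.42 to -0.38 with 1 library left out. That of chromosome 10 was -0.27 at equal sums. That of chromosome 20 was 0.12 without a filter, 0.10 at equal sums and 0.13 to 0.19 with 1 library left out. The cause of these moves was not tested. Same-lettered libraries deviated from their group means with correlations of -0.04, 0.02 and 0.04 across genes, so no pairing by letter was seen over all genes together. Such a correlation cannot exclude an effect shared by letter in part of the genes. Replicate a was the highest library of each group for NFKBIA, TNFAIP3 and CXCL8. With the replicate block 1876 genes were called (1161 higher, 715 lower). What depth limits is unknown here, since the values are not reads.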
